A study of Drosophila melanogaster with 2 samples.

Results

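The genes described here encode the machinery that copies nuclear DNA in Drosophila melanogaster. A list of 38 gene names was matched to the deposited transcript table by gene symbol and NCBI gene ID, with older and newer names treated as one gene, and each locus was represented by its most-read transcript. The 38 names came to 37 loci of 13816, because PCNA and mus209 are names of the same gene. All 37 were among the 8137 loci with enough reads to be tested. Of these, l(1)G0095 is IntS4 in the RefSeq gene table, a subunit of the Integrator complex that processes RNA polymerase II transcripts. It is not known as a replication gene and is given separately. Sld5 shares a merged locus with a neighbouring nucleotide kinase gene, whose reads make up nearly all of the locus, so Sld5 is described by its own transcript. The replication genes then number 36.

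Poly(A) RNA of posterior midguts, the last stretch of the fly's digestive and absorptive intestine before the hindgut, was sequenced from wild-type Oregon R females raised at a single temperature, at 2 ages, 5 days and 45 days. The labels state 75 midguts per condition, pooled for RNA extraction, and 3 biological replicates per age. A library is thus a mean of many guts, and the tests measure the spread from pool to pool, which may be partly technical. The deposited columns are named treatment and control, 3 libraries each, and neither set is linked to an age by the labels or headers used. Where control stood for the 5-day flies, a higher value in treatment would be a higher value at 45 days; no label states it. Strain, genotype, sex and tissue are the same in both sets.

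Before a cell copies its DNA, the origin recognition complex marks the start sites, and Cdc6 and Cdt1 load the ring-shaped Mcm2-7 helicase there. Kinases, Mcm10, Cdc45 and the GINS complex then turn the ring into an active helicase, polymerase alpha with primase starts each new strand, and polymerases delta and epsilon extend it on the sliding clamp PCNA. In the adult fly midgut, intestinal stem cells divide to renew the epithelium, and their daughters that become enterocytes go on copying DNA without dividing. Many genes of this machinery are transcribed in a burst as cells enter S phase, and differentiated cells that have stopped copying DNA keep little of these transcripts.

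Replication genes were higher in treatment almost throughout. Of the 36, 30 were higher at an adjusted p of at most 0.05 (edgeR quasi-likelihood test, Benjamini-Hochberg adjustment over all tested genes), 0 were lower and 6 did not pass. Among all 8137 tested genes, 25.0% were higher and 24.1% lower by the same rule. In 31 of the 36 every treatment library was above every control library, which held for 28.4% of all tested genes. The change was at least 1.5-fold for 21 (7.01% of all tested genes) and at least 2-fold for 5 (2.41% of all tested genes), the latter being Mcm10, PCNA, Prim2, Mcm5 and Mcm7. The median log2 fold change of treatment over control was 0.67, with a range of 0.03 to 1.36, against a median of 0.01 over all tested genes. In whole-tissue RNA, a larger number of cells of a type cannot be told apart from more RNA per cell.

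**Figure D1:**
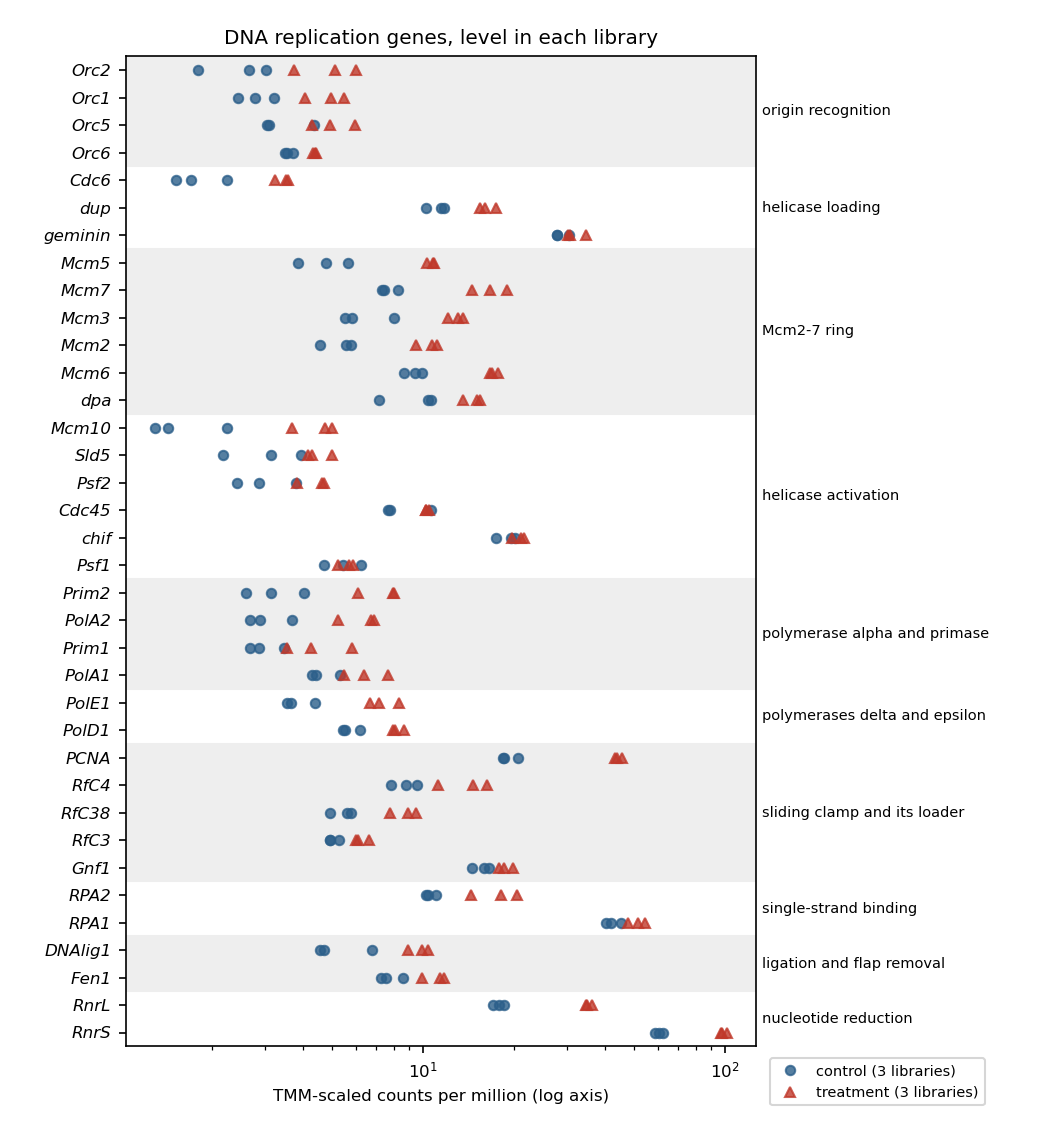
Level of each of the 36 replication genes in each library, in TMM-scaled CPM on a log axis. Blue circles are the 3 control and red triangles the 3 treatment libraries, and shading separates the roles. The triangles lie to the right of all circles for 31 genes.

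The direction was shared by the libraries of a set. Levels are given as CPM, reads scaled to a library of fixed size with trimmed-mean (TMM) factors. Summed over the 36 genes, the level was 558.1, 571.3 and 551.0 CPM in treatment replicates 1 to 3 and 356.4, 368.0 and 355.4 CPM in control replicates 1 to 3. No library of either set thus came near the other set. The number of replication genes above the mean of their own set was 19, 22 and 15 in treatment replicates and 15, 21 and 13 in control replicates, so no library held all the high or all the low values of its set. With scaling by total reads alone, the median of all tested genes shifted to 0.22, that of the 37 listed loci to 0.86 from 0.66, and 35 of the 37 were called higher, beside 4127 genes higher and 1076 lower over the whole table (2038 and 1962 with TMM).

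The genes were mostly of low abundance. Their control levels ran from 1.66 to 60.5 CPM with a median of 5.45, against a median of 20.9 CPM for all tested genes, and 27 of the 36 were under 10 CPM in control, where 30.9% of all tested genes lay. Each had between 221 and 6628 reads over the 6 libraries. Of the 27 low genes 23 were called higher (median log2 fold change 0.69), and of the 9 more abundant ones 7 were (0.54). Per kilobase of transcript the control levels ran from 0.568 CPM for PolE1 to 36.7 for RnrS, and the treatment levels from 1.09 for PolE1 to 60.2 for RnrS. The genes were spread over the chromosome arms, with 8 on 2L, 9 on 2R, 7 on 3L, 9 on 3R and 3 on X. Of the 36, 29 had 1 transcript in the table, and transcript lengths ran from 728 to 6791 bases.

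**Figure D2:**
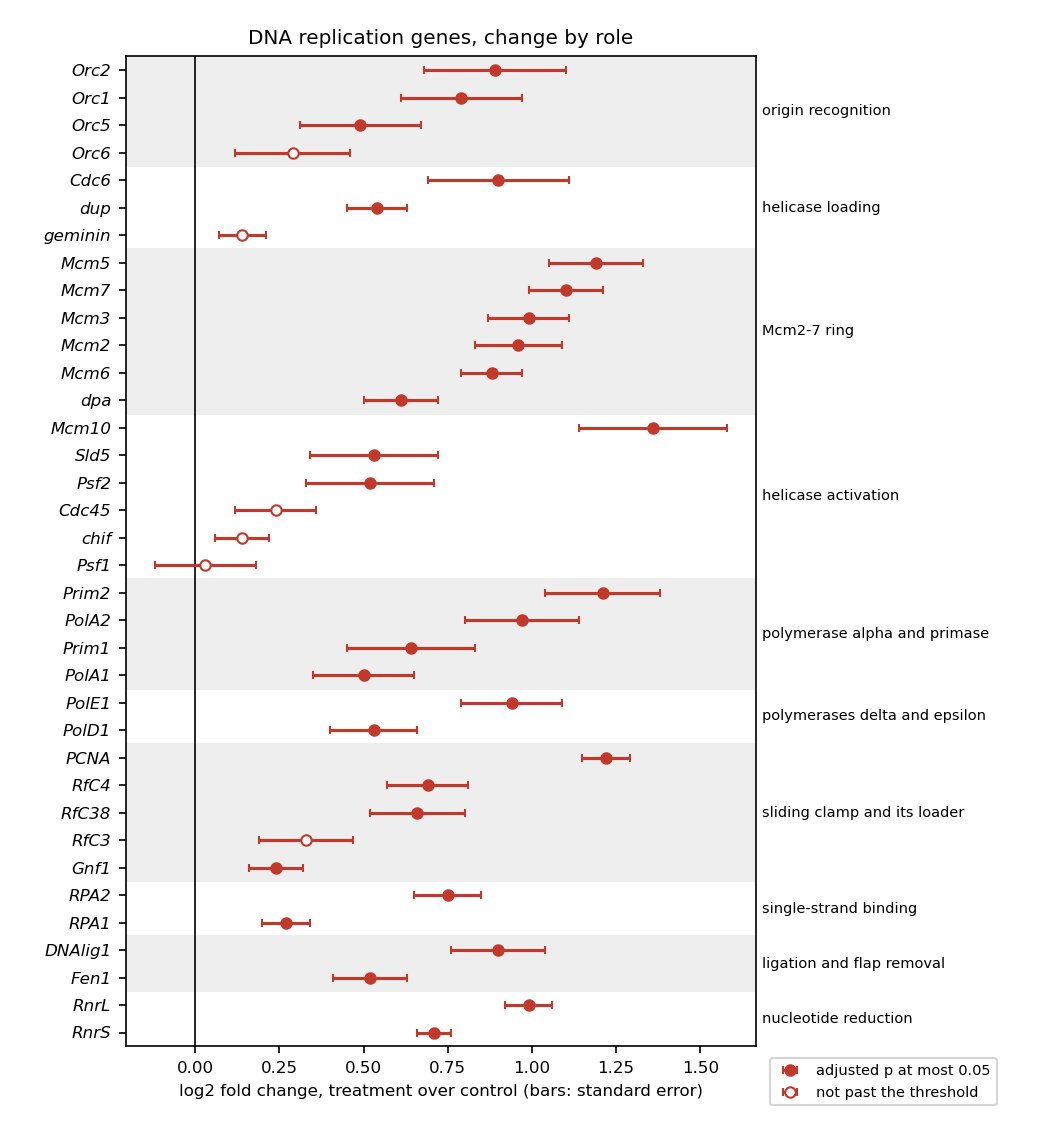
Log2 fold change of treatment over control for the 36 replication genes, grouped by role, with bars of 1 standard error. Filled points had an adjusted p of at most 0.05 and open points did not. All 6 genes of the Mcm2-7 ring are filled, and 3 of the 6 genes of helicase activation are open.

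The genes that mark origins rose in 3 of 4 cases. Orc2, a subunit of the origin recognition complex, had 3.73, 5.98 and 5.09 CPM in treatment replicates and 1.79, 3.01 and 2.66 in control replicates. The lowest treatment value was above the highest control value, and the log2 fold change was 0.89 (SE 0.21, edgeR adjusted p = 0.000512). Orc1, the largest subunit, was at 4.95, 5.49 and 4.07 CPM in treatment and 2.77, 2.44 and 3.2 in control, a rise of 0.79 (SE 0.18, edgeR adjusted p = 0.000527). Its sets did not overlap either. Orc5 had 4.29, 4.9 and 5.94 CPM in treatment and 3.04, 3.08 and 4.36 in control. Here the sets overlapped, and the rise of 0.49 (SE 0.18, edgeR adjusted p = 0.0247) lost its call without treatment replicate 3 (0.138), control replicate 1 (0.0943) or control replicate 2 (0.105) and with DESeq2 (0.0733). Orc6, the smallest subunit, stood at 4.38 ± 0.0448 against 3.58 ± 0.122 CPM (mean ± SD, n = 3 each). Its sets did not overlap, but the fold of 1.22 had an approximate 95% interval of 0.973 to 1.53 at 331 reads in all, and it was not called (edgeR adjusted p = 0.157).

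Of the 3 genes of helicase loading, both loaders were higher and the inhibitor of Cdt1 was not called. Cdc6, the ATPase that works with the origin recognition complex to load the ring, had 3.52, 3.24 and 3.56 CPM in treatment and 1.52, 2.24 and 1.7 in control. The sets were well apart, with a log2 fold change of 0.90 (SE 0.21, edgeR adjusted p = 0.000604), although Cdc6 had the fewest reads of the 36 genes (221) and lies wholly within the span of Zasp66 on the opposite strand. The gene dup encodes Cdt1, the second loading factor, and was at 16.0, 17.4 and 15.4 CPM in treatment and 11.7, 11.5 and 10.2 in control (log2 fold change 0.54, SE 0.09, edgeR adjusted p = 1.26e-05). All treatment values were above all control values. For geminin, the protein that binds Cdt1 and blocks reloading, the libraries gave 30.2, 34.6 and 30.7 CPM in treatment and 30.5, 27.8 and 27.9 in control. These overlapped, and the fold of 1.1 (approximate 95% interval 0.999 to 1.22) was not called (edgeR adjusted p = 0.108).

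All 6 genes of the Mcm2-7 ring, the core of the replicative helicase, were higher, with a median log2 fold change of 0.97. Mcm5 (3R, 6614250 to 6616898, as deposited with no build named) had 10.3, 10.8 and 10.9 CPM in treatment and 5.63, 3.84 and 4.77 in control. It was about as high in every treatment library and rose by 1.19 (SE 0.14, edgeR adjusted p = 7.37e-09). Mcm7 (3L, 8884710 to 8887435) had 14.5, 16.7 and 19.0 CPM in treatment and 7.41, 8.27 and 7.29 in control, a rise of 1.10 (SE 0.11, edgeR adjusted p = 5.44e-10). Both were past 2-fold, with Mcm7 more variable in treatment than in control. Mcm3 (0.99, SE 0.12, edgeR adjusted p = 4.5e-08), Mcm2 (0.96, SE 0.13, 1.55e-07) and Mcm6 (0.88, SE 0.09, 2.35e-09) followed. The smallest rise of the ring was in dpa, the fly Mcm4, with 13.6, 15.1 and 15.4 CPM in treatment and 7.14, 10.4 and 10.6 in control (0.61, SE 0.11, edgeR adjusted p = 3.41e-05). The sets did not overlap for any of the 6.

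**Figure D3:**
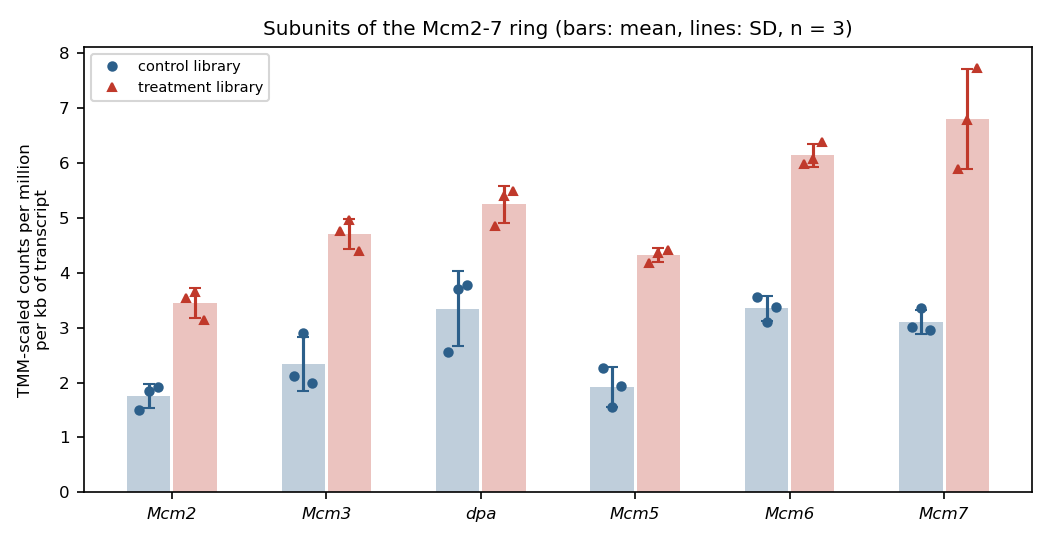
Level of each gene of the Mcm2-7 ring per kilobase of transcript, in TMM-scaled CPM per kilobase. Bars are means, lines SD over 3 libraries, and points single libraries, with control in blue and treatment in red. In control the means run from 1.75 (Mcm2) to 3.35 (Mcm6), in treatment from 3.44 (Mcm2) to 6.79 (Mcm7).

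The ring holds 1 copy of each subunit, and the transcript levels of its genes per kilobase are set side by side here. These levels describe RNA only, and the protein was not measured. In control Mcm6 (3.35 ± 0.228 CPM per kilobase, SD, n = 3), dpa (3.34 ± 0.686) and Mcm7 (3.11 ± 0.216) were highest, and these 3 did not differ beyond their spread. Mcm3 (2.34 ± 0.495), Mcm5 (1.92 ± 0.36) and Mcm2 (1.75 ± 0.218) formed the lower end of the ring. The control values of Mcm5 overlapped those of Mcm3 and of Mcm2. The lowest control value of Mcm3 (2.0) was narrowly above the highest of Mcm2 (1.91). In treatment the order was Mcm7 (6.79 ± 0.913), Mcm6 (6.14 ± 0.205), dpa (5.24 ± 0.341), Mcm3 (4.7 ± 0.275), Mcm5 (4.32 ± 0.132) and Mcm2 (3.44 ± 0.273). The treatment values of Mcm7 and Mcm6 overlapped, as did those of dpa and Mcm3 and those of Mcm3 and Mcm5, while Mcm6 was above dpa and Mcm5 above Mcm2 in every treatment library. Mcm2 had the lowest mean in both sets. The highest subunit of a library was 1.69, 1.85 and 2.46 times the lowest in the treatment libraries and 2.37, 2.38 and 1.97 times in the control libraries, overlapping ranges.

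Helicase activation was the role with the most mixed result, with 3 of 6 genes higher and a median of 0.38. Mcm10, which helps the loaded helicase to start and to hold the fork together, showed the largest rise of all 36 genes. Its reads numbered 72, 51 and 56 in treatment and 16, 35 and 19 in control, or 3.68, 5.0 and 4.75 against 1.43, 2.24 and 1.29 CPM. The log2 fold change was 1.36 (SE 0.22, edgeR adjusted p = 4.2e-06), and the approximate 95% interval of the fold ran from 1.91 to 3.47. By contrast Cdc45, the subunit that joins the ring to form the active helicase, had 10.5, 10.2 and 10.2 CPM in treatment and 7.68, 10.6 and 7.77 in control. Only control replicate 2 reached the treatment level, and Cdc45 was not called (log2 fold change 0.24, SE 0.12, edgeR adjusted p = 0.104). It passed without that library (0.42, adjusted p = 0.00534) and with total-read scaling (0.44, adjusted p = 0.00244). The locus lies within the span of su(w[a]) on the opposite strand, which held 5865 reads to its 795, and the strand setting of the counting is not given in the sources used here.

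The genes of the GINS complex, a ring of 4 different subunits that binds Cdc45, did not move as a unit. Psf2 had 4.7, 4.61 and 3.82 CPM in treatment and 2.41, 3.78 and 2.86 in control, with a log2 fold change of 0.52 (SE 0.19, edgeR adjusted p = 0.0203). The gap between the sets was narrow, and the call was lost without treatment replicate 1 (0.108), control replicate 1 (0.11) or control replicate 3 (0.0709) and with DESeq2 (0.0813). Sld5, by its own transcript of 728 bases, had 4.29, 5.0 and 4.16 CPM in treatment and 3.13, 2.18 and 3.95 in control (0.53, SE 0.19, edgeR adjusted p = 0.0226). That call too was lost without treatment replicate 2 (0.0687), without control replicate 2 (0.201) and with DESeq2 (0.0767). The merged locus as a whole, made up almost entirely of the kinase gene's reads, was at 0.29 (SE 0.05, edgeR adjusted p = 6.1e-06). Psf1 gave 5.21, 5.88 and 5.68 CPM in treatment and 6.25, 5.45 and 4.7 in control. These overlapped fully, with a fold of 1.02 (approximate 95% interval 0.832 to 1.25; edgeR adjusted p = 0.883). The remaining subunit gene, Psf3, was not among the listed names and was singled out after its values were seen. It had 33.6, 31.6 and 35.5 CPM in treatment and 42.1, 41.8 and 43.9 in control, lower by the test (log2 fold change -0.34, SE 0.07, edgeR adjusted p = 7.15e-05), with the call lost under total-read scaling (-0.14, adjusted p = 0.0792). Per kilobase Psf3 stood at 24.1 CPM in treatment and 30.7 in control, where Psf1 had 4.8 and 4.69 and Psf2 5.38 and 3.71.

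The gene chif encodes the fly counterpart of Dbf4, the activating subunit of the Cdc7 kinase that fires the loaded helicase. Its libraries gave 21.6, 19.7 and 21.1 CPM in treatment and 19.5, 20.1 and 17.4 in control, overlapping and not called (log2 fold change 0.14, SE 0.08, edgeR adjusted p = 0.131). Part of its locus is shared with Hyls1, a second gene read from the same transcript unit. Cdc7, the kinase itself, was in the list of other replication genes and was lower, at 14.9, 14.3 and 15.2 CPM in treatment and 21.5, 21.1 and 22.2 in control (-0.54, SE 0.08, edgeR adjusted p = 6.59e-07; -0.34 with total-read scaling). No treatment library of Cdc7 came near a control library.

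**Figure D4:**
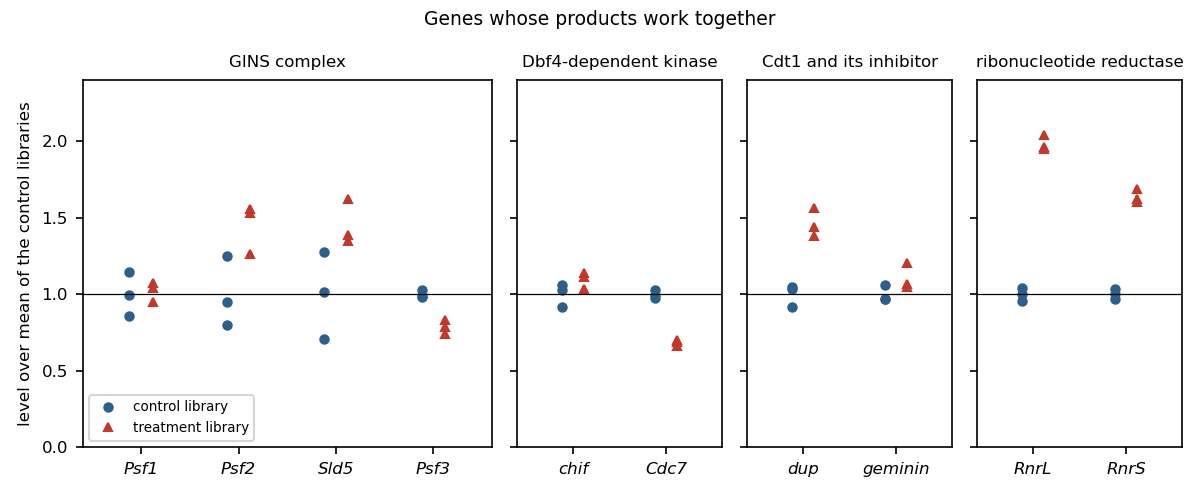
Level of each gene in each library divided by its mean over the control libraries, for genes whose products work together. Blue circles are control and red triangles treatment libraries, and the line marks the control mean. Psf3 and Cdc7 lie below the line in all 3 treatment libraries. Psf2, Sld5, dup, RnrL, RnrS, geminin and chif lie above it in all 3, with sets that overlap for geminin and chif. Psf1 lies on both sides.

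Ratios of CPM within a library show the same differences without the scaling between libraries. The pairs were chosen after their values were seen, and with 3 against 3 libraries an exact two-sided permutation test cannot go below 0.1, which all 4 ratios gave. The ratio of dup to geminin was 0.529, 0.501 and 0.5 in treatment replicates and 0.383, 0.415 and 0.363 in control replicates. The ratios of the sets did not overlap, which restates the values of these genes and adds no test. For chif over Cdc7 the ratio was 1.41 ± 0.0381 in treatment and 0.878 ± 0.0862 in control (SD, n = 3), and for Psf2 over Psf3 it was 0.131 ± 0.0208 and 0.0709 ± 0.0173. The ratio of RnrL to RnrS was 0.357 ± 0.0177 and 0.295 ± 0.0203.

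The genes of polymerase alpha and primase, the enzyme that lays down the RNA primer and the first stretch of DNA, were all called higher (4 of 4, median 0.81). Prim2 (3L, 20352933 to 20354673), the large primase subunit, had 8.02, 7.94 and 6.11 CPM in treatment and 4.02, 3.14 and 2.59 in control. It was the most changed of the 4 (log2 fold change 1.21, SE 0.17, edgeR adjusted p = 3.39e-07). PolA2, the regulatory subunit, was at 5.21, 6.86 and 6.7 against 2.68, 2.88 and 3.68 CPM (0.97, SE 0.17, edgeR adjusted p = 2.07e-05). The catalytic subunits of both activities were called as well, and the differences in size between the 4 genes were not tested. Prim1, the primase that makes the primer, had 5.82, 3.53 and 4.24 CPM in treatment and 2.68, 3.46 and 2.86 in control (0.64, SE 0.19, edgeR adjusted p = 0.00581). PolA1, the DNA polymerase subunit, had 7.66, 5.49 and 6.36 against 4.29, 5.32 and 4.43 CPM (0.50, SE 0.15, edgeR adjusted p = 0.00738). In both the lowest treatment value barely cleared the highest control value, and without treatment replicate 1 neither was called (Prim1 0.37, adjusted p = 0.184; PolA1 0.34, adjusted p = 0.141).

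Both polymerases that extend the strands were higher. PolE1, the catalytic subunit of polymerase epsilon, which copies the leading strand, had 6.69, 7.16 and 8.31 CPM in treatment and 4.38, 3.65 and 3.54 in control. Its rise was 0.94 (SE 0.15, edgeR adjusted p = 5.61e-06). PolD1, the catalytic subunit of polymerase delta of the lagging strand, was at 8.63, 7.94 and 8.06 against 5.45, 5.51 and 6.2 CPM (0.53, SE 0.13, edgeR adjusted p = 0.00111). Neither gene's sets overlapped. The difference in size between PolE1 and PolD1 was not tested.

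PCNA, the sliding clamp that holds the polymerases to DNA, had the smallest adjusted p of the 36 genes. Its levels were 45.7, 43.4 and 44.1 CPM in treatment and 20.6, 18.4 and 18.5 in control, a log2 fold change of 1.22 (SE 0.07, edgeR adjusted p = 1.44e-15; 2R, 16149259 to 16150362). Every treatment library held more than 2 times the CPM of every control library. The complex that loads the clamp, replication factor C, had 3 of its 4 listed genes called higher. RfC4 had 14.6, 16.3 and 11.2 CPM in treatment and 9.55, 8.78 and 7.83 in control (0.69, SE 0.12, edgeR adjusted p = 9.26e-06). RfC38 was at 8.73 ± 0.885 against 5.42 ± 0.451 CPM (0.66, SE 0.14, edgeR adjusted p = 0.000144). Both are small subunits of the loader, and their sets did not overlap. Gnf1, its large subunit, had 17.8, 19.9 and 18.6 CPM in treatment and 14.5, 15.9 and 16.5 in control. The rise of 0.24 (SE 0.08, edgeR adjusted p = 0.0154) was the smallest of the called genes and was lost without treatment replicate 2 (0.0705) or control replicate 1 (0.0821) and with DESeq2 (0.0849). RfC3, another small subunit, was at 6.64, 5.98 and 6.11 against 5.27, 4.93 and 4.9 CPM, with sets that did not overlap but an adjusted p of 0.0567 in edgeR (fold 1.26, approximate 95% interval 1.03 to 1.52).

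Replication protein A coats the exposed single strands at the fork. RPA2, its middle subunit, had 18.2, 20.5 and 14.4 CPM in treatment and 10.2, 11.0 and 10.4 in control (0.75, SE 0.10, edgeR adjusted p = 3.74e-07). RPA1, the large subunit, was more abundant at 54.5, 47.9 and 51.7 against 40.4, 45.4 and 41.9 CPM, and its rise was 0.27 (SE 0.07, edgeR adjusted p = 0.000868). Both were called, RPA1 with the sets close together. The remaining subunit gene, RPA3, in the list of other replication genes, stood at 0.40 (SE 0.11, edgeR adjusted p = 0.00375).

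The enzymes that finish the lagging strand were higher. DNAlig1, the ligase that seals the fragments, had 9.96, 10.4 and 8.91 CPM in treatment and 6.79, 4.55 and 4.7 in control (0.90, SE 0.14, edgeR adjusted p = 2.74e-06). Fen1, the nuclease that trims the displaced flap, was at 11.0 ± 0.962 against 7.79 ± 0.695 CPM (0.52, SE 0.11, edgeR adjusted p = 0.000293). In both, all treatment libraries exceeded all control libraries.

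Ribonucleotide reductase makes the building blocks of DNA, and both of its genes were higher. RnrL (2L, 10325018 to 10327986), the large subunit, had 35.0, 34.8 and 36.4 CPM in treatment and 17.9, 18.6 and 17.0 in control (0.99, SE 0.07, edgeR adjusted p = 3.73e-13). RnrS (2R, 7870646 to 7872948), the small subunit, was the most abundant of the 36 genes, with 98.2, 102 and 97.0 CPM in treatment and 58.5, 60.6 and 62.5 in control (0.71, SE 0.05, edgeR adjusted p = 2.77e-13). The spread within a set was small for both. Of the other genes of nucleotide supply, 3 are reported here. They are named because they were called, so that all 3 were higher follows from this choice. Over all tested genes 25.0% were higher. Ts, thymidylate synthase, was at 13.3 ± 0.914 against 6.04 ± 0.118 CPM (1.14, SE 0.11, edgeR adjusted p = 3.48e-10), the deoxynucleoside kinase gene dnk at 26.0 ± 2.94 against 14.6 ± 0.352 (0.85, SE 0.08, 3.36e-10), and dUTPase at 39.8 ± 1.73 against 23.1 ± 1.26 (0.78, SE 0.07, 5.69e-11).

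**Figure D5:**
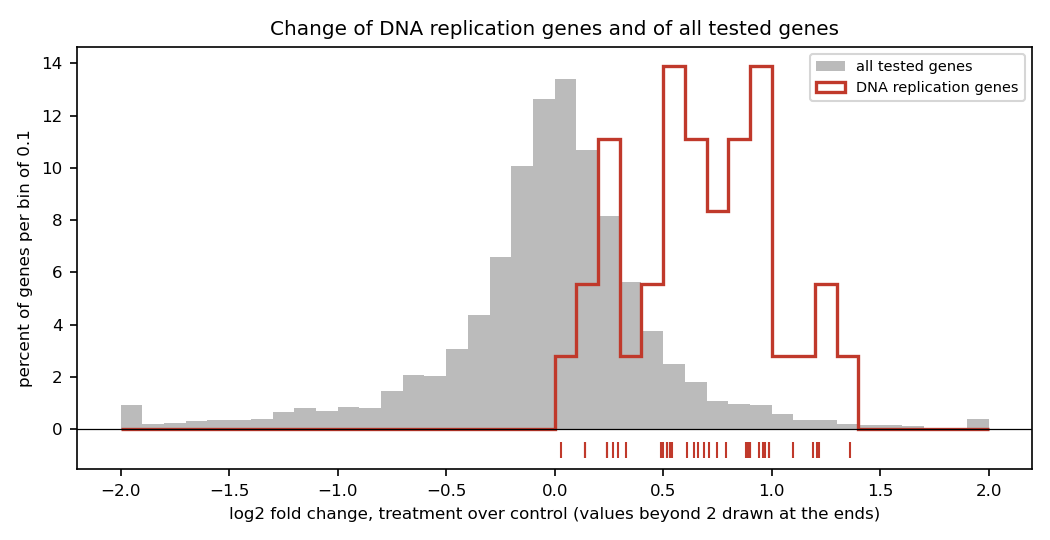
Distribution of log2 fold changes of treatment over control for the 36 replication genes (red outline and ticks) and for all 8137 tested genes (grey), as percent of genes per bin of 0.1. The replication genes run from 0.03 to 1.36 with a median of 0.67, and the median of all tested genes is 0.01.

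Replication genes outside the 38 names were more divided. Of 23 further genes, 20 were matched alone and tested. Of these, 11 were higher, 3 lower and 6 not called (median 0.40), beside 25.0% of all tested genes higher and 24.1% lower. With total-read scaling 15 of the 20 were higher and 2 lower, beside 4127 and 1076 of all 8137 tested genes. Claspin, a fork protein that passes on the checkpoint signal, was at 8.68, 7.26 and 8.57 CPM in treatment and 3.57, 4.17 and 4.22 in control (1.04, SE 0.14, edgeR adjusted p = 3.51e-07). The 3 lower genes were Cdc7 and Psf3, described above, and rnh1, an RNase H that degrades RNA paired with DNA. For rnh1 the libraries gave 13.7, 12.5 and 11.3 CPM in treatment and 21.8, 20.4 and 20 in control (-0.70, SE 0.09, edgeR adjusted p = 3.98e-08; -0.50 with total-read scaling). None of these 3 loci overlapped another locus of the table. Of the other subunits of complexes on the list, Orc4 (0.80, SE 0.18, edgeR adjusted p = 0.00046), PolE2 (1.02, SE 0.20, 5.69e-05) and PolD2 (0.53, SE 0.13, 0.00114) were higher. PolD3 (0.26, SE 0.14, adjusted p = 0.115) and PolE4 (0.39, SE 0.17, adjusted p = 0.0522) were not called in the same edgeR fit.

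Genes that control entry into and passage through S phase were higher in 11 of 17 cases and lower in 0 (median 0.56). Over all tested genes 25.0% were higher and 24.1% lower. With total-read scaling, where 4127 of all 8137 tested genes were higher, 16 of the 17 were. The 3 with the smallest adjusted p were pic, which encodes the DDB1 adaptor of a ubiquitin ligase (0.56, SE 0.06, edgeR adjusted p = 1.1e-08), CycA, a cyclin of S phase and mitosis (0.69, SE 0.10, 1.13e-06), and Cdk1, the mitotic kinase (1.0, SE 0.15, 1.23e-06). CycE, the cyclin that starts S phase, was at 4.71 ± 0.524 against 2.57 ± 0.0981 CPM (0.91, SE 0.18, edgeR adjusted p = 7.92e-05). The transcription factor genes of the E2F family, known activators and repressors of replication genes, are given after their values were seen. E2f1 had 109, 95 and 109 CPM in treatment and 99.5, 94.3 and 110.0 in control, with a fold of 1.03 (approximate 95% interval 0.955 to 1.12; edgeR adjusted p = 0.532). Its sets overlapped, as did those of E2f2 (0.01, SE 0.09, adjusted p = 0.929) and of Dp (0.11, SE 0.07, adjusted p = 0.164). With total-read scaling all 3 passed (E2f1 0.25, E2f2 0.22 and Dp 0.32).

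IntS4, on the list under the name l(1)G0095, did not move with the replication genes. It had 16.1, 18.5 and 18.2 CPM in treatment and 17.7, 18.8 and 16.4 in control, a fold of 0.985 (approximate 95% interval 0.878 to 1.1; edgeR adjusted p = 0.852).

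Markers of other cell types and tissues moved between the sets as well, and their part in the changes of the replication genes was not tested. The marker counts stand beside 25.0% of all tested genes higher and 24.1% lower. Of 10 stem cell and enteroblast markers 7 were higher and 0 lower (median 0.54), and their summed level was 440 to 454 CPM in treatment and 364 to 388 in control, with none at 0 reads. Among them esg rose by 0.43, Delta by 0.74, Sox21a by 0.83 and N by 1.0. Not called were Su(H) (-0.21, SE 0.19, edgeR adjusted p = 0.391), zfh2 (0.26, SE 0.17, 0.216) and peb (-0.03, SE 0.05, 0.68). The most abundant was peb, at 227 CPM in treatment and 231 in control, a large part of the summed level. Visceral muscle markers were lower in 11 of 12 cases, with summed levels of 1281 to 1325 against 2274 to 2434 CPM. Of 11 enteroendocrine markers 7 were lower and 0 higher (379 to 396 against 532 to 567 CPM; 6 lower and 2 higher with total-read scaling). The 10 enterocyte markers divided into 4 higher and 6 lower (10693 to 11784 against 19461 to 20185 CPM; 4 and 4 with total-read scaling). Those higher were nub (0.18), pdm2 (0.86), betaTry (0.13) and Vha100-4 (4.77). Lower were Myo31DF (-0.17), alphaTry (-0.17), Amy-p (-0.83), Jon65Aiv (-0.46), LManV (-1.46) and mag (-2.09). The sum rests largely on abundant digestive genes, such as Jon65Aiv (4460 against 6110 CPM) and mag (1100 against 4700). The number of enterocytes was not measured.

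Ovary also contains cells that copy DNA, and 5 of its 20 markers had enough reads to be tested, of which 2 were higher and 1 lower. Their summed levels were 78.2 to 80.7 CPM in treatment and 73.3 to 77.2 in control. Cp15, Cp16 and Cp19, eggshell genes, had 0 reads in all 6 libraries, and the germline genes vas, osk, bam and orb had 22, 1, 11 and 11 reads in all. The higher 2 were piwi (1.32, SE 0.20, edgeR adjusted p = 9.13e-07) and exu (0.49, SE 0.09, 3.42e-05). The lower 1 was Fcp3C (-0.39, SE 0.07, edgeR adjusted p = 4.68e-05). Not called were nanos (0.51, SE 0.43, edgeR adjusted p = 0.341) and stau (0.15, SE 0.07, 0.102). The summed level rests largely on stau (32.5 CPM in treatment against 29.5 in control), Fcp3C (23.1 against 30.0) and exu (16.5 against 11.7). Of 8 hemocyte markers 4 were tested, 2 higher and 1 lower (10.9 to 11.9 against 7.75 to 9.13 CPM), with He at 0. Of 7 fat body markers 3 were tested and all 3 were higher (28.9 to 31.7 against 19.1 to 22.7 CPM). These were Yp1 (0.70), Yp2 (0.72) and Yp3 (0.36), while Fbp1, Fbp2, Lsp2 and Lsp1beta had 6, 5, 2 and 2 reads in all. Malpighian tubule markers were lower in 2 of 4 cases (191 to 198 against 421 to 434 CPM), and the 3 tested trachea markers were lower (6.96 to 7.46 against 9.95 to 11.3 CPM), calls that all 3 lost with total-read scaling.

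Without a stated strand setting, reads of overlapping genes cannot be told apart. The spans of 14 of the 36 genes overlapped another locus, 13 of them an opposite-strand neighbour and Prim1 a same-strand one, CG7083. Of the 14, 11 were called higher (median 0.59), and of the 22 with no overlap 19 were (median 0.73).

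The authors' deposited table of 4101 genes lists 30 of the 36 replication genes, 7 of them matched by full name because their gene number has changed, and all 30 carry a positive sign. The share of all tested genes listed there, and the share of positive signs in that table, were not counted. It compares the same treatment and control sets, so the shared sign is not independent support. The 30 comprise 29 of the genes called here and RfC3 (authors' deposited table: log2 fold change 0.32, adjusted p 0.0664). Of the genes called here, Sld5 is the 1 that was not matched there. The authors' deposited table gives 1.2 for PCNA, 1.05 for Mcm7 and 1.03 for Mcm10, the last below the 1.36 found here.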

How the data were processed

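Per the labels, poly(A) RNA of the posterior midgut was sequenced from 3 biological replicates at each age. Raw read counts per transcript for 3 treatment and 3 control libraries were deposited by the authors, together with transcript length. The sources used here do not name the aligner, genome build or strand setting. DESeq, without a version, is named per the submitters' processing notes. A second table deposited by the authors gives log2 fold changes and adjusted p-values, copied only where named. The 6 normalized per-library columns were not used.

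The 24047 transcripts, less 145 predicted ones, gave 13822 loci, each represented by its most-read transcript; 6 with a symbol already taken were dropped. RefSeq gene IDs (Release 6) named 12824 loci. Coordinates are those deposited. Of the 37 listed loci, 35 matched by gene ID and 2 through merged loci (Sld5, chif).

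Treatment was compared with control by edgeR's quasi-likelihood test (edgeR 4.0.16 under R 4.3.3) after TMM scaling and a low-count filter (filterByExpr, minimum 10), with no covariates and Benjamini-Hochberg adjustment over 8137 genes at 0.05. The fit was also tested on simulated data. SE and approximate 95% intervals come from this fit, and SD from 3 libraries. DESeq2 1.42.0 was an alternative, as were other scalings, no filter, summed transcripts, a replicate block, leaving out each library, and the own transcript at merged loci, the last added after the data were seen.

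Libraries held 9581961 to 18001951 reads over loci. Intervals cover the modelled spread between libraries. Within a set libraries differed by 2.45 to 7.64 in chi-square per degree of freedom and between sets by 105 to 196. Each library was counted as 1 sample, and these values cannot show whether libraries of a set are independent.

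Named genes were every listed member and, of each related list, up to 3 called genes with the smallest adjusted p; others are named after their values were seen. Members and lists were chosen with earlier results of these data known. Promoter motifs and gene sequences were not analysed here. A gene of the nucleotide supply list is not reported here.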

Additional observations from a re-analysis of the deposited data

How the results depend on the processing

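Of the 30 loci called higher, 25 kept the call under all 13 alternatives, 5 lost it under at least 1 (Gnf1, Orc5, Psf2, Prim1 and PolA1) and 0 changed sign. The 25 include the merged locus of Sld5, made up almost entirely of the kinase gene's reads. Sld5 by its own transcript lost the call without treatment replicate 2, without control replicate 2 and with DESeq2. The count of listed loci called higher was 35 with total-read scaling, 27 with DESeq2 and 27 to 30 without single libraries, and the count called lower was 0 under all 13. Total-read scaling gave 4127 genes higher and 1076 lower and a median of 0.86 over the listed loci; it drops the composition factors, which moves all values up. Leaving out single libraries gave 1830 to 1918 genes higher and 1735 to 1927 lower, and medians of 0.59 to 0.71 over the listed loci. With total-read scaling RfC3 (adjusted p = 0.00189), Orc6 (0.011), geminin (0.000145), Cdc45 (0.00244) and chif (0.000385) passed. Values near 0 changed sign: IntS4 to 0.18 with total-read scaling and to between -0.085 and 0.0573 without single libraries (above 0 without treatment replicate 1 or control replicate 2), and Psf1 to between -0.0781 and 0.112 (below 0 without treatment replicate 2 or control replicate 3); the cause was not tested.

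No pairing of the samples by library number was seen: deviations of same-numbered libraries correlated at 0.00924, 0.0939 and 0.0211. Low correlations over all genes cannot exclude a pairing. With the replicate number as a block, 30 listed loci were called higher and 0 lower, with a median of 0.68, and over all genes 2104 were higher and 2009 lower. The promoter motifs planned beside these results were not run. Genes under 10 CPM rest on few reads per library, down to 16 for Mcm10 in a control library, which widens their intervals.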

Other observations

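Genes that rebuild chromatin behind the fork were higher in 7 of 8 cases, with a median log2 fold change of 0.51. Caf1-55, a histone chaperone subunit that several chromatin complexes share, was at 45.0 ± 2.2 CPM in treatment and 26.9 ± 2.91 in control (SD, n = 3; log2 fold change 0.74, SE 0.07, edgeR adjusted p = 5.27e-10). The chaperone gene asf1 was at 35.3 ± 1.78 against 23.9 ± 0.929 CPM (0.57, SE 0.07, edgeR adjusted p = 5.06e-08), and Caf1-180, the large subunit of chromatin assembly factor 1, at 15 ± 2.74 against 8.48 ± 0.409 (0.83, SE 0.11, 3.14e-07). The exception was Nap1, a far more abundant histone chaperone gene, at 232 ± 6.83 against 251 ± 3.31 CPM (-0.11, SE 0.04, edgeR adjusted p = 0.0294), which turned to 0.09 (adjusted p = 0.06) with total-read scaling. The list was chosen with earlier results of these data known, and its counts stand beside 25.0% of all tested genes higher and 24.1% lower.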
